A study of Homo sapiens with 11 samples.

Results

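The intron windows near 5′ splice sites are stretches of at most 100 bases that lie within the first 500 bases of an intron and were enriched in RPS19 immunoprecipitates. Their members are the listed windows whose leading annotation is SS5_ADJ (adjacent, the first 100 bases of the intron) or SS5_PROX (proximal, the next 400 bases). They number 4127 of the 122708 windows in any of the 3 lists and fall in 1728 genes, 1631 of them adjacent and 2496 proximal. The R62W list held 2801 members of 86567 windows, the R101H list 2239 of 93331 and the WT list 771 of 15402.

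RPS19 is a protein of the small ribosomal subunit, and its gene is the one most often mutated in Diamond-Blackfan anemia, an inherited failure of red cell production. Enhanced crosslinking and immunoprecipitation (eCLIP) was performed in HEK293T, a human embryonic kidney line that carries the SV40 large T antigen, a viral protein that binds p53. The IP cells were transfected with plasmids for V5-tagged RPS19 and precipitated with a V5 antibody: 3 samples with the R62W substitution, 2 with R101H and 3 with the wild-type protein (WT). The 3 size-matched inputs came from untransfected cells without a tagged protein. All cells keep their own untagged RPS19. The sources used here do not give which of these inputs each list was set against. A transcript made more abundant by transfection and a transcript recovered more with RPS19 therefore cannot be told apart, nor can more RNA per cell be told apart from more cells expressing it.

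The 5′ splice site, or splice donor, is the junction at which an exon ends and an intron begins. It is recognised first by base pairing with U1 snRNA and then by U6 snRNA, and most introns start with the bases GT. Intron sequence is present in precursor RNA in the nucleus and is removed before the mRNA reaches cytoplasmic ribosomes, whereas RPS19 acts in 40S subunits that are assembled in the nucleolus and used in the cytoplasm.

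The sequences around the donor show where the adjacent windows begin. They could be read only for donors that fall within RefSeq promoter sequences (GRCh38.p14), which run from before a gene's start to just after it, so the 42 readable donors of the 1631 adjacent windows lie close to an annotated start. Those below are shown because they cover windows of all 3 lists, of both substitutions and of a single list. Capitals mark the first 5 bases of the intron, and lower-case bases before them are the end of the exon.
BAG6 (chr6:31652355-31652414, minus strand, all 3 lists): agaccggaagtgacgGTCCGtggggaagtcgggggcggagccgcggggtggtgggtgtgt
TLE3 (chr15:70096730-70096789, minus strand, all 3 lists): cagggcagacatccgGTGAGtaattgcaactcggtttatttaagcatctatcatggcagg
SLC37A4 (chr11:119030828-119030863, minus strand, all 3 lists): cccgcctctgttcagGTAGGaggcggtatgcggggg
BRD2 (chr6:32972913-32972972, plus strand, all 3 lists): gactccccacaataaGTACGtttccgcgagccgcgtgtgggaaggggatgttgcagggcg
ATXN7L3 (chr17:44200012-44200071, minus strand, all 3 lists): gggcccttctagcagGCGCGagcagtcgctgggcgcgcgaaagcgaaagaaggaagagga
DPM3 (chr1:155140446-155140505, minus strand, R62W and R101H): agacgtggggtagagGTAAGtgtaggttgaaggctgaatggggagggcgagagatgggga
ERCC2 (chr19:45370524-45370550, minus strand, R62W and R101H): ggccggcgccatgaaGTGAGaaggggg
RBBP7 (chrX:16869993-16870052, minus strand, R62W only): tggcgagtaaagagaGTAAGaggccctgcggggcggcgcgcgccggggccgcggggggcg
CCNG2 (chr4:77157222-77157256, plus strand, R62W only): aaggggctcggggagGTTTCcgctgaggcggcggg
ZBTB7B (chr1:155002672-155002731, plus strand, R101H only): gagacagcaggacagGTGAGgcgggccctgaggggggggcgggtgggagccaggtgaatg
BLCAP (chr20:37527748-37527807, minus strand, WT only): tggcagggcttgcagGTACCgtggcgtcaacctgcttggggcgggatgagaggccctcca
TMEM184B (chr22:38272839-38272898, minus strand, WT only): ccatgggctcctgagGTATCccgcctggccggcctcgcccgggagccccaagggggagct

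Of the 42 readable donors, 39 (92.9%) began with GT and 3 with GC, as in ATXN7L3. The pair GT stood at 4.62% of all positions in the 35116 promoter sequences. Among the 40 donors with 5 readable bases, 23 (57.5%) read GTNAG on the strand of the gene, where N is any base. GTNAG stood at 0.323% of promoter positions, and 82.1% of all promoter sequences held it somewhere on either strand. The exon ended in AG at 22 of the 42. The windows were chosen by an annotated 5′ splice site, so these shares describe annotated donors and not an effect of being listed. Donors outside the lists were not compared. The letters describe positions and say nothing of which factor was bound.

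The values of a window are the authors' log2 odds ratios, which set IP reads against input reads, and cover the replicates in which the window passed. BAG6, a chaperone for proteins with a tail anchor, had the highest mean in R101H and in WT among the readable donors. Its replicate values were 2.02, 4.08 and 5.68 in R62W (pooled IP count 117, pooled input count 7), 4.77 and 6.23 in R101H (124 and 1), and 2.77 and 5.07 in WT (36 and 1). The groups overlapped. ATXN7L3, a subunit of a histone deubiquitinating module, had 3.19, 3.21 and 4.17 in R62W, 3.09 and 4.41 in R101H, and 2.21, 2.80 and 2.97 in WT. Its R62W and R101H values all lay above its WT values, and R62W and R101H overlapped.

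As a share of its list, this class of windows was smaller in R62W and R101H than in WT. It took 3.24% of the R62W list (exact Clopper-Pearson 95% interval 3.12 to 3.36), 2.40% of the R101H list (2.30 to 2.50) and 5.01% of the WT list (4.67 to 5.36). The intervals cover counting error only, and windows of a gene are not independent. The number of members was 3.63 times that of WT in R62W and 2.90 times in R101H, while the number of all windows was 5.62 and 6.06 times that of WT. Coding windows numbered 8.56 and 9.33 times those of WT, windows near 3′ splice sites 4.03 and 3.97 times, and windows deep in introns 1.48 and 1.19 times. The ratio of the members thus lay below that of coding windows and above that of deep intron windows. When each gene was reduced to its window with the highest mean, the shares were 5.08% in R62W, 3.6% in R101H and 5.19% in WT, so R62W and WT were then nearly equal. Each list pools the replicates of its group, so the lengths of lists carry no test.

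The members rested on few reads. Their median pooled IP count was 30 in R62W, 29 in R101H and 37 in WT, and their median pooled input count was 5, 5 and 4. A pooled input of at least 10 reads was reached by 25.5%, 23.0% and 21.0% of them. Input counts are not on 1 footing across lists: at members that passed in all replicates of the groups compared, the median pooled input was 5 reads in R101H and 9 in WT, and 10 in R62W and 9.5 in WT. Over all such windows it was 15 in R101H and 23 in WT, and 23 in both R62W and WT. The median log2 odds ratio was 2.26 in R62W, 2.25 in R101H and 2.61 in WT, against 1.90, 2.00 and 2.03 over all windows of each list. The median G and C content was 55.1% in R62W, 54% in R101H and 59% in WT. In R62W 780 members (27.8%) and in WT 171 (22.2%) passed in all 3 replicates, while every listed R101H window passed in both of its replicates.

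Of the 5 positions in the first 500 bases of the intron, the first held the most members. On the plus strand, where the order of windows can be read, 39.4% of 1443 R62W members, 40.3% of 1114 R101H members and 32.7% of 364 WT members lay in the first 100 bases. The last of the 5 positions, 400 to 500 bases in, held 11.3%, 12.8% and 15.9%. From the donor inwards, the 5 positions held 569, 279, 221, 211 and 163 windows in R62W, 449, 198, 170, 154 and 143 in R101H, and 119, 65, 61, 61 and 58 in WT. The enrichment of the listed windows did not follow: the 5 medians ranged from 2.18 to 2.31 in R62W, from 2.11 to 2.32 in R101H and from 2.42 to 2.59 in WT. Of the adjacent windows, 49.6% in R62W, 48.5% in R101H and 37.6% in WT also carried an annotation shared with the 3′ splice site, as in short introns. Later windows of such introns may have another leading annotation and so not count as members. The larger share of the first position is therefore not a measure of binding near the donor. The part of such introns in it was not tested.

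**Figure D1:**
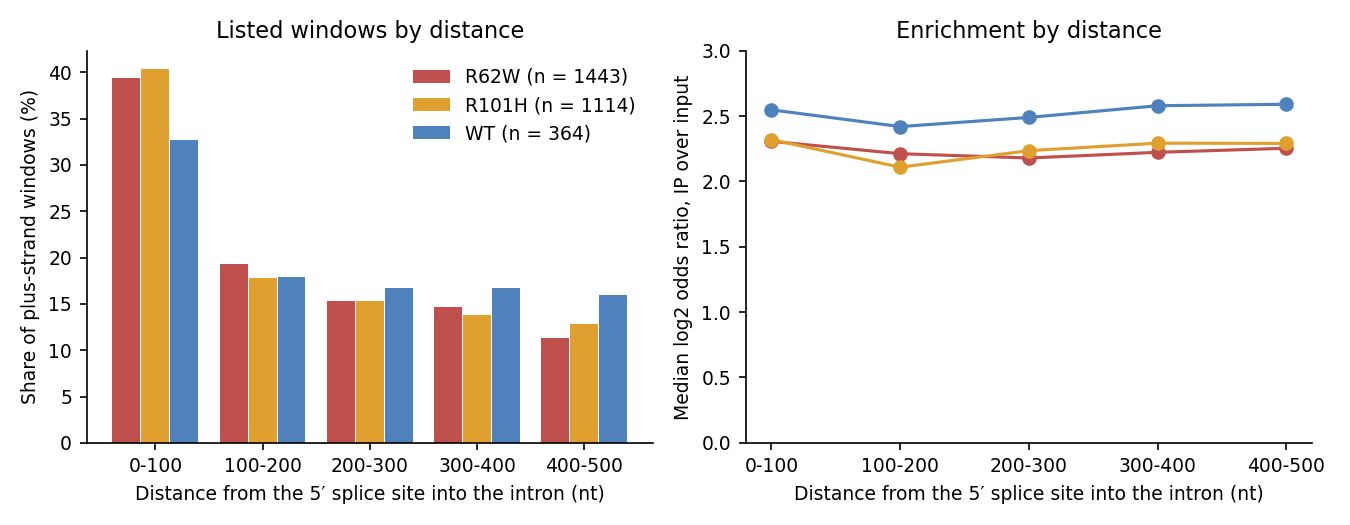
Left, the share (%) of plus-strand members in each 100-base step from the 5′ splice site into the intron, in R62W, R101H and WT. Right, the median log2 odds ratio of the same windows; the first step holds 39.4%, 40.3% and 32.7% of members while the medians stay within 2.11 to 2.59.

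An adjacent window touches the last window of the exon, and this neighbour was listed more often in the substitutions. It was listed beside 535 of 1140 adjacent windows in R62W (46.9%, exact 95% interval 44.0 to 49.9), 417 of 917 in R101H (45.5%, 42.2 to 48.8) and 48 of 258 in WT (18.6%, 14 to 23.9). Coding windows are themselves more numerous in both substitution lists. Windows adjacent to 3′ splice sites had nearly the same shares, at 48.2%, 46.4% and 19.3%. The neighbour on the intron side was listed beside 23.2%, 18.2% and 21.7%, and neither neighbour beside 43.0%, 45.4% and 68.2%.

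Where both sides of a donor were listed, the intron side usually had the higher log2 odds ratio. The median of adjacent minus exon was 0.67 in R62W, with 409 of 535 above 0, 0.52 in R101H, with 299 of 417, and 1.19 in WT, with 38 of 48. The intron windows had far fewer reads, with a median input of 5, 4 and 3 reads against 23, 16 and 20.5 on the exon side. Their median IP count was 32, 30 and 43, against 88, 82 and 102. The part of this depth gap in the difference was not tested. Across the pairs of a list, Pearson's r between the sides was 0.16, 0.06 and -0.01, as a description over windows that share libraries.

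**Figure D2:**
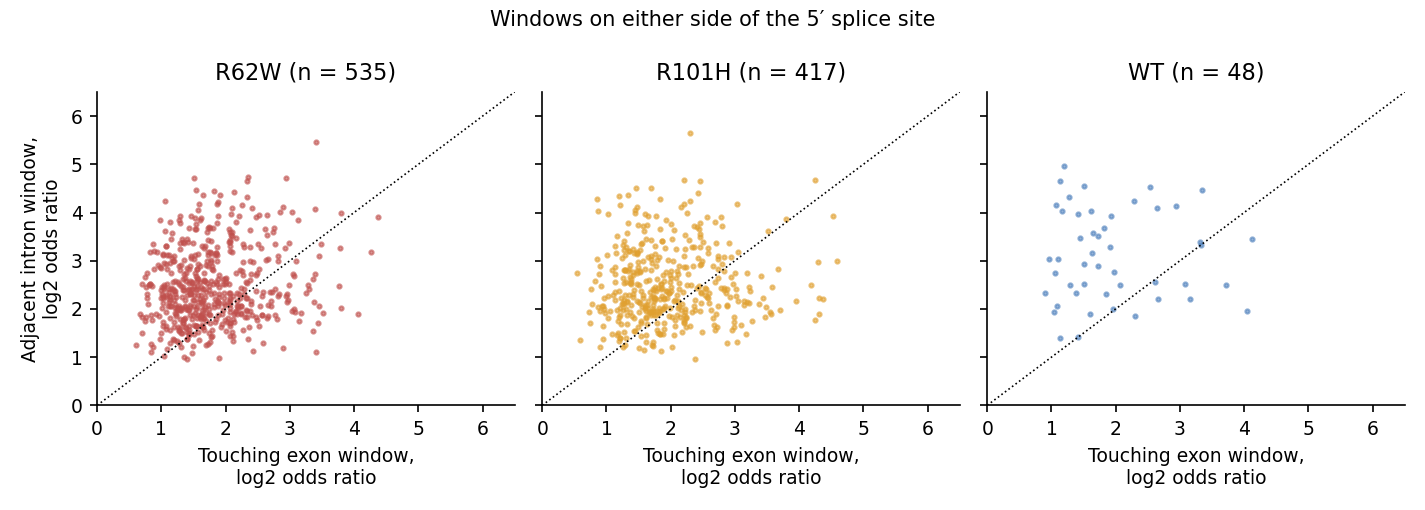
Log2 odds ratio of the adjacent intron window (vertical) against that of the exon window touching it (horizontal), 1 point per donor with both listed, in R62W (535), R101H (417) and WT (48). Most points lie above the dotted line of equal values.

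Most members stood alone. Of 2329 runs of touching members in R62W, 2014 were single windows, as were 1707 of 1923 in R101H and 553 of 631 in WT. Whole 500-base stretches with all 5 windows listed occurred in 18 introns of R62W, 11 of R101H and 11 of WT. DDB2, which recognises ultraviolet damage in DNA, and ENAH, an actin regulator, had the full stretch in all 3 lists. In DDB2 (chr11:47215264-47215763) the 5 means ran from 1.36 to 2.16 in R62W, from 1.34 to 2.42 in R101H and from 1.47 to 2.01 in WT. In ENAH (chr1:225652186-225652685) they ran from 2.06 to 2.72, from 2.45 to 2.94 and from 1.83 to 2.37. Full stretches in WT also covered CDKN1A, BBC3, BTG2, MIR34AHG, FLCN, LMNA, STK11, CSNK1D and CSNK1E. Those of CSNK1D (chr17:82250879-82251378) and CSNK1E (chr22:38316660-38317159) were full in R62W too. R101H had another full stretch in CSNK1D (chr17:82245476-82245975). Other full stretches in R62W included PTBP1, a repressor of exon inclusion, FASN, the fatty acid synthase, CCNG2 and PHLDA3. Others in R101H included EIF5A, MAT2A and BRD2.

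At identical coordinates, 480 members were listed in both R62W and WT, which is 17.1% of the R62W members and 62.3% of the WT members. R101H and WT shared 327, or 14.6% of the R101H members and 42.4% of the WT members. Of all WT windows, 79.6% were listed in R62W and 72.0% in R101H, which is more than among the WT members. In the other direction, 14.2% of all R62W windows and 11.9% of all R101H windows were listed in WT, which is less than among their members. R101H and R62W shared 1176 members, 52.5% of those of R101H and 42.0% of those of R62W, against 64.2% and 69.2% of all windows. All 3 lists held 299 of the members. A window left out of a list has no value there, which is not a measured 0.

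The 263 members listed in WT alone had a median G and C content of 63%, a median log2 odds ratio of 3.01 and a median pooled input of 2 reads. The 1444 in R62W alone had 55%, 2.26 and 4 reads, and the 1035 in R101H alone had 53%, 2.28 and 4 reads. The 877 shared by both substitutions and left out of WT had 55%, with medians of 2.20 and 7 reads in R62W and 2.17 and 6 reads in R101H. Windows of WT alone were thus richer in G and C and thinner in input than these other classes. The 181 members shared by R62W and WT and left out of R101H were close to them in G and C, at 62%. Their median pooled input was 4 reads in each of the lists. Of windows of any kind, 2684 were in WT alone, 25057 in R62W alone and 33002 in R101H alone. A further 49247 were in both substitutions and left out of WT. The members made up 9.80%, 5.76%, 3.14% and 1.78% of these 4 classes. They made up 11.1% of the windows in R62W and WT and left out of R101H. The share was 6.15% for R101H and WT without R62W, and 2.81% for all 3 lists.

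The comparison of each substitution with WT asks how the recovery of these intron stretches with RPS19 differs when the protein is altered. It can be made for windows listed in both groups, using the replicate values that the lowest, mean and highest give without replicate numbers. Over all windows listed in both, the median of R62W minus WT was 0.26, that of R101H minus WT 0.60 and that of R101H minus R62W 0.21. Over the members it was -0.06 (215 higher and 265 lower of 480), 0.08 (179 and 148 of 327) and 0.04 (626 and 550 of 1176). Relative to the shift of all windows, the medians of the members were -0.33, -0.52 and -0.17. Windows near 3′ splice sites had -0.07, 0.03 and 0.06 and deep intron windows -0.14, 0.00 and 0.08, while coding windows had 0.34, 0.65 and 0.21. The comparisons with WT share the WT samples.

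**Figure D3:**
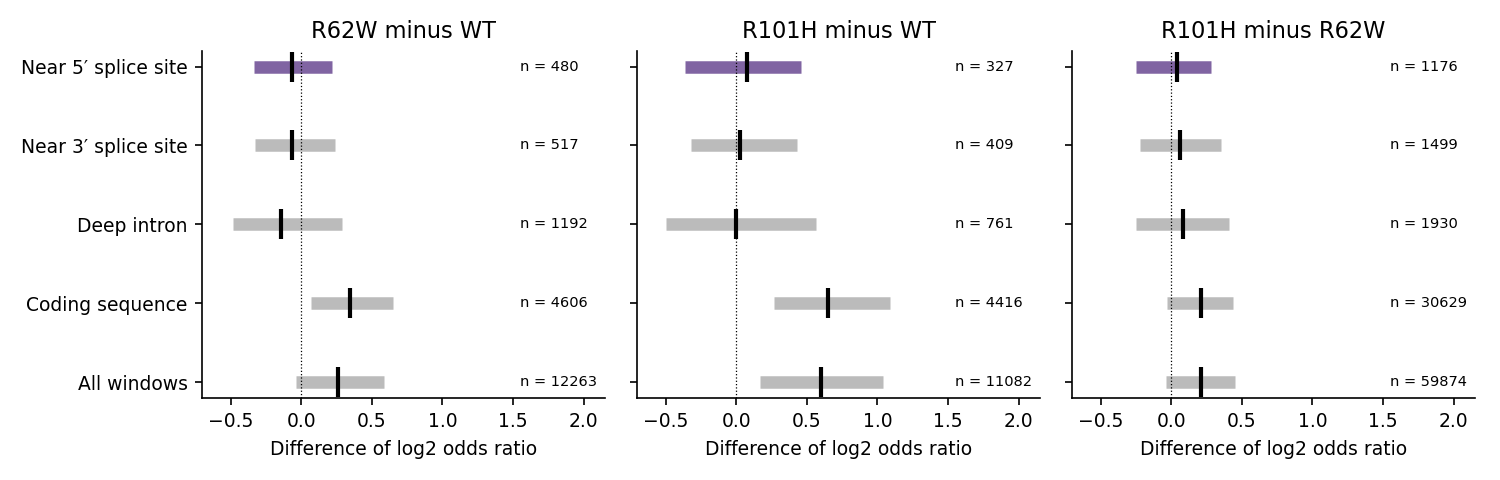
Difference of mean log2 odds ratio for windows listed in both groups, by annotation, in a panel for each pair of groups. Ticks are medians and bars the range between the 25th and 75th percentiles; the medians of members are -0.06, 0.08 and 0.04, beside 0.26, 0.60 and 0.21 over all windows.

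No member passed limma's test with Benjamini-Hochberg adjustment at 0.05 among windows listed in both groups. R62W minus WT had 0 of 480, R101H minus WT 0 of 327 and R101H minus R62W 0 of 1176, and over all windows 0% were called in each comparison. At an unadjusted p under 0.05 there were 20 members (11 higher, 9 lower), 15 (7 and 8) and 16 (8 and 8). When only windows that passed in all replicates were tested, limma called 0 of 96 members in R62W minus WT (background 0.0374% of 2672 windows) and 2 of 93 in R101H minus WT (background 18.2% of 2730). In R101H minus R62W it called 0 of 564 (background 0% of 34309). The share called among members for R101H minus WT was below that among all windows.

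The same windows can be read by whether the replicates of the groups overlap. For R62W minus WT, 6 of 96 members had every R62W value above every WT value and 4 the reverse, which is 6.25% and 4.17%, against 31.7% and 1.5% of all windows. For R101H minus WT it was 10 and 12 of 93 (10.8% and 12.9%), against 55.5% and 4.21%. For R101H minus R62W it was 35 and 16 of 564 (6.21% and 2.84%), against 19.2% and 1.03%. In all 3 comparisons the upward share of the members lay below the background and the downward share above it. Groups separate more easily with the 2 R101H samples than with 3, so shares can be set side by side only within a comparison. The members also had lower inputs than all windows, and the part of this was not tested.

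The pair of members called for R101H minus WT went in opposite directions. The first 100 bases of a CDKN1A intron (chr6:36678940-36679039) had 1.76, 1.91 and 3.27 in R62W, 1.3 and 2.04 in R101H, and 2.80, 3.76 and 3.76 in WT. CDKN1A encodes the cyclin-dependent kinase inhibitor p21. All R101H values lay below all WT values, while R62W overlapped both. R101H minus WT was -1.77 (SE 0.45, limma adjusted p = 0.048 among windows that passed in all replicates). The adjusted p was 0.16 among all windows listed in both, and 0.61 and 0.13 after centring on the median of each of these sets, where the difference itself was larger, at -2.37 and -2.68. R62W minus WT was -1.13 (SE 0.49, limma adjusted p = 0.19), which did not pass.

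The first 100 bases of an RPS2 intron (chr16:1963553-1963652) had 1.97, 2.71 and 3.05 in R62W, 2.60 and 3.14 in R101H, and 1.38, 1.57 and 1.74 in WT. RPS2 is a protein of the small ribosomal subunit. Both substitutions lay wholly above WT and overlapped each other. R101H minus WT was 1.31 (SE 0.33, limma adjusted p = 0.048), with an adjusted p of 0.16 among all windows listed in both, 0.044 where both inputs reached 10 reads, and 0.62 and 0.55 after centring. The whole set of windows that passed in all replicates moved by 0.91, so relative to that shift the RPS2 window was 0.40 higher. R62W minus WT was 1.01 (SE 0.34, limma adjusted p = 0.14).

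A window of STAG3L1, a pseudogene related to the cohesin gene STAG3, had a like pattern. At chr7:75365844-75365943 it had 2.40, 2.51 and 2.96 in R62W, 2.77 and 3.18 in R101H, and 1.41, 1.70 and 2.01 in WT. The substitutions did not overlap WT. R101H minus WT was 1.27 (SE 0.35, limma adjusted p = 0.051 among windows that passed in all replicates and 0.048 where both inputs reached 10 reads), and 0.17 to 0.64 in the other settings. STAG3L1 has near-identical copies, so the source of its reads is uncertain.

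The highest values of R62W minus WT, among members with at least 10 input reads and enrichment in all replicates, came from EFL1P1, a pseudogene, and RP11-867G23.8. The adjacent EFL1P1 window (chr15:84080327-84080426) had 3.03, 3.29 and 3.83 in R62W, 0.68 and 3.12 in R101H, and 0.91, 1.74 and 2.17 in WT, on pooled IP counts of 1935, 746 and 574. R62W lay above WT throughout, and R101H spanned both. R62W minus WT was 1.77 (SE 0.40, limma adjusted p = 0.12). Reads of a pseudogene can come from its near-identical copies, so the source of this window is uncertain.

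The adjacent window of RP11-867G23.8 (chr11:66348071-66348170) carried more reads than any other named here, 7707 IP and 1005 input reads in R62W. Its values were 2.40, 2.90 and 3.86 in R62W, 2.25 and 3.22 in R101H, and 1.26, 1.32 and 2.27 in WT. R62W lay above WT, and the lowest R101H value fell just within WT. The differences were 1.44 (SE 0.47, limma adjusted p = 0.13) for R62W minus WT and 1.12 (SE 0.48, limma adjusted p = 0.12) for R101H minus WT.

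PTMA, which encodes the acidic nuclear protein prothymosin alpha, had the lowest R101H minus WT among members with at least 10 input reads in both lists and enrichment in all replicates. At chr2:231710777-231710847 it had 1.48, 1.49 and 2.26 in R62W, 1.19 and 1.42 in R101H, and 2.01, 2.21 and 2.34 in WT. R101H lay below WT and R62W overlapped it. R101H minus WT was -0.88 (SE 0.31, limma adjusted p = 0.079).

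Between the substitutions, the highest difference under the same limits on input and replicates was in SNRNP70, which encodes the 70K protein of the U1 snRNP that recognises 5′ splice sites. At chr19:49105136-49105235 the values were 2.08 and 2.40 in R101H, 0.92, 1.56 and 1.57 in R62W, and 0.91 and 1.33 in the WT replicates that passed. R101H lay above R62W by 0.89 (SE 0.36, limma adjusted p = 0.94), which did not pass. The first 100 bases of an AKT2 intron (chr19:40279640-40279737) had 2.38 and 2.48 in R101H, against 1.42, 1.61 and 1.88 in R62W. AKT2 is a kinase of insulin signalling. The difference was 0.79 (SE 0.32, limma adjusted p = 0.94).

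The highest log2 odds ratio of any member was the same window in all 3 lists, in UBTD2 (chr5:172233722-172233821). Its values were 7.37, 7.76 and 9.74 in R62W, 6.58 and 8.75 in R101H, and 6.52, 6.72 and 7.96 in WT. The pooled IP counts were 2160, 901 and 852 on inputs of 4, 2 and 4 reads. The groups overlapped, and R62W minus WT was 1.23 (SE 0.69, limma adjusted p = 0.28).

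Among members with at least 10 input reads, the adjacent window of SETD1A, a histone H3 lysine methyltransferase, was highest in R62W and WT. At chr16:30957965-30958064 it had 3.06, 3.61 and 7.50 in R62W, 3.28 and 8.03 in R101H, and 2.22, 2.95 and 6.88 in WT. In each group 1 replicate stood more than 3 above the others. Over the 69 members that were enriched in every replicate of all 3 groups the median range between replicates was 1.09 in R62W, 0.61 in R101H and 1.00 in WT. The range spans 2 values in R101H and 3 in the others, so the smaller R101H range does not show tighter replicates.

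Other high windows had inputs of at most 2 reads. A window of MRPL44, a mitochondrial ribosomal protein (chr2:223960403-223960502), had 4.06, 5.18 and 6.66 in R62W, 3.11 and 5.54 in R101H, and 4.61 and 5.69 in WT. ALAS1, the first enzyme of heme synthesis in most tissues, had a window at chr3:52205258-52205338 with 5 and 6.85 in R62W and 2.18 and 5.19 in R101H, and was left out of WT. DAPK1, a death-associated kinase (chr9:87647604-87647703), had 4.84, 4.88 and 6.25 in R62W and 4.80 and 5.06 in WT, and was left out of R101H. In each of these windows the groups that listed it overlapped.

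**Figure D4:**
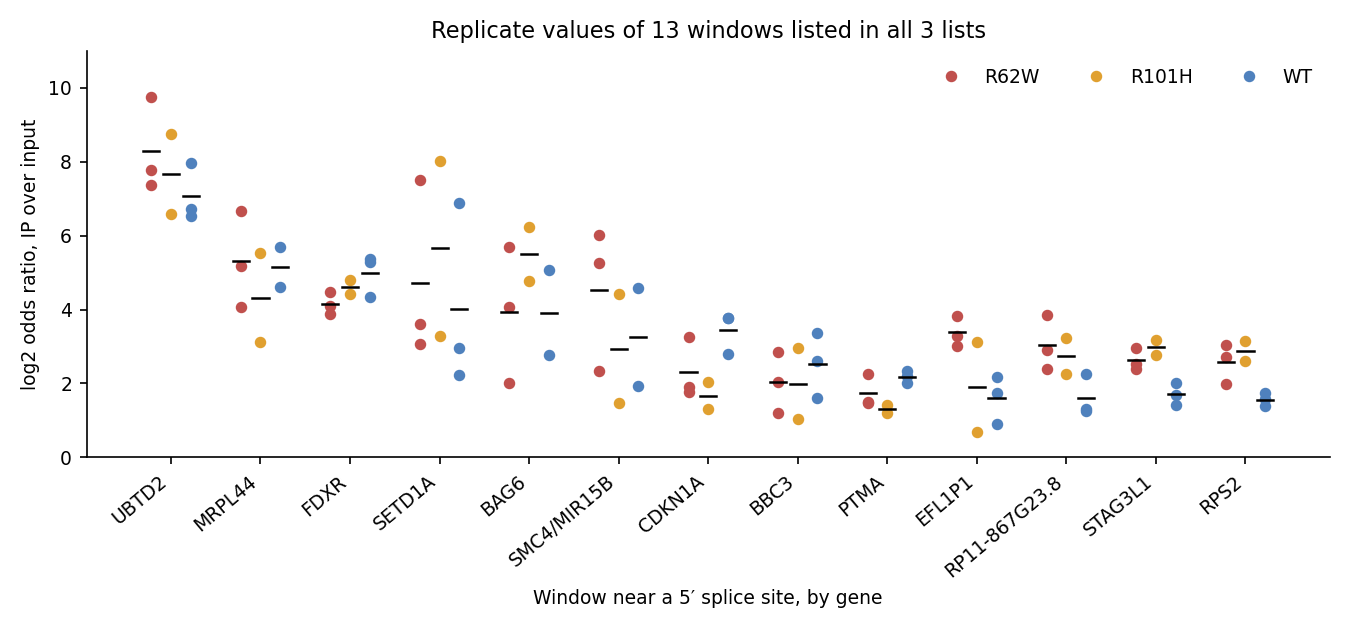
Replicate log2 odds ratios (points) and their mean (bars) for 13 windows listed in R62W, R101H and WT, by gene; groups with 3 samples show 2 points where the window passed in 2 or where values coincide. CDKN1A and PTMA are lower in R101H than in WT, STAG3L1 and RPS2 are higher in both substitutions, and the SETD1A replicates span over 4 units in each group.

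p53 is a transcription factor that is stabilised when ribosome assembly fails, because free ribosomal proteins hold back its inhibitor MDM2. Genes that it activates were frequent among the members, with the highest shares in WT. Of the listed p53 target genes, 12 of 25 in R62W (48.0%), 8 of 25 in R101H (32.0%) and 14 of 22 in WT (63.6%) had a window near a 5′ splice site, against 17.6%, 14.8% and 11.9% of all listed genes. They held 54 members in R62W, 38 in R101H and 61 in WT, with median log2 odds ratios of 2.47, 2.50 and 2.93. Counted per gene name, their windows of any kind numbered 465 of 88465 in R62W, 469 of 95193 in R101H and 419 of 15862 in WT. These genes were thus already more frequent in the WT list as a whole. Members made up 11.6%, 8.10% and 14.6% of their windows, against 3.27%, 2.43% and 5.01% for all listed genes. The inputs are from untransfected cells, so the level of these transcripts in the transfected cells is not known from these files.

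Shared windows of the p53 target genes were mostly lower in the substitutions, though no window passed among all windows listed in both. For R62W minus WT, 7 of their 43 shared windows were higher and 36 lower, with a median of -0.30, beside 215 higher and 265 lower and -0.06 over all members. For R101H minus WT, 8 of 33 were higher and 25 lower, with a median of -0.36, beside 179 and 148 and 0.08 over all members. For R101H minus R62W, 14 of 32 were higher and 18 lower, with a median of -0.01. The comparisons share samples, and the windows of a gene share its transcript. Relative to the shift of all windows these medians lie lower still. Not every gene was lower. The 1 shared window of BAX was higher in R62W (0.14) and in R101H (0.13). For R62W minus WT, PHLDA3 had 2 windows higher and 2 lower, and DDB2 2 and 5. For R101H minus WT, PHLDA3 had 1 higher and 2 lower, and DDB2 3 and 3.

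FDXR, an electron carrier reductase of mitochondria, had members in all 3 lists, 12 in R62W, 14 in R101H and 13 in WT, 11 of them common to all. Their medians were 3.57, 3.29 and 3.67. For R62W minus WT 10 of 11 shared windows were lower, and for R101H minus WT 9 of 12. Its highest window in WT (chr17:74865525-74865618) had 3.87, 4.10 and 4.48 in R62W, 4.43 and 4.81 in R101H, and 4.34, 5.28 and 5.36 in WT, with no input read in any list. R62W and WT overlapped there by 1 value. The highest FDXR means in R62W and R101H, 4.74 and 4.75, lay in other windows.

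BBC3, the gene of PUMA, a trigger of apoptosis, had 7 members in R62W, 6 in R101H and 13 in WT. All 7 windows shared with R62W and all 6 shared with R101H were lower than in WT, with medians of -0.49 and -0.52. The window with the most input (chr19:47227958-47228057) had 1.21, 2.05 and 2.84 in R62W, 1.05 and 2.95 in R101H, and 1.60, 2.62 and 3.36 in WT. These values overlapped. Further along the transcript, 4 touching windows at chr19:47226164-47226563 were listed in WT alone, with means of 2.41 to 3.27.

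CDKN1A had 6, 2 and 9 members, and in WT the first 500 bases of one intron (chr6:36678940-36679439) were covered whole, with means of 2.41 to 3.94 on 800 IP reads and 60 input reads. BTG2, an antiproliferative gene, had 4, 2 and 5. Its highest window in R62W and WT (chr1:203305849-203305948) had 3.78 and 3.92 in R62W and 4.38, 5.23 and 5.45 in WT, without input reads. PHLDA3, an inhibitor of AKT signalling, had 5, 3 and 4, and DDB2 had 7, 8 and 7. CCNG2, an unconventional cyclin, had 6, 0 and 2. MDM2 had 2 in R62W, and SESN2, AEN, RPS27L and TNFRSF10B had members in WT alone, with 2 for SESN2 and 1 for each of the others. Windows of any kind were listed in R62W, R101H and WT for each of them. They numbered 9, 8 and 12 for SESN2 and 15, 17 and 16 for AEN. For RPS27L they numbered 4, 4 and 3, and for TNFRSF10B 20, 24 and 11.

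**Figure D5:**
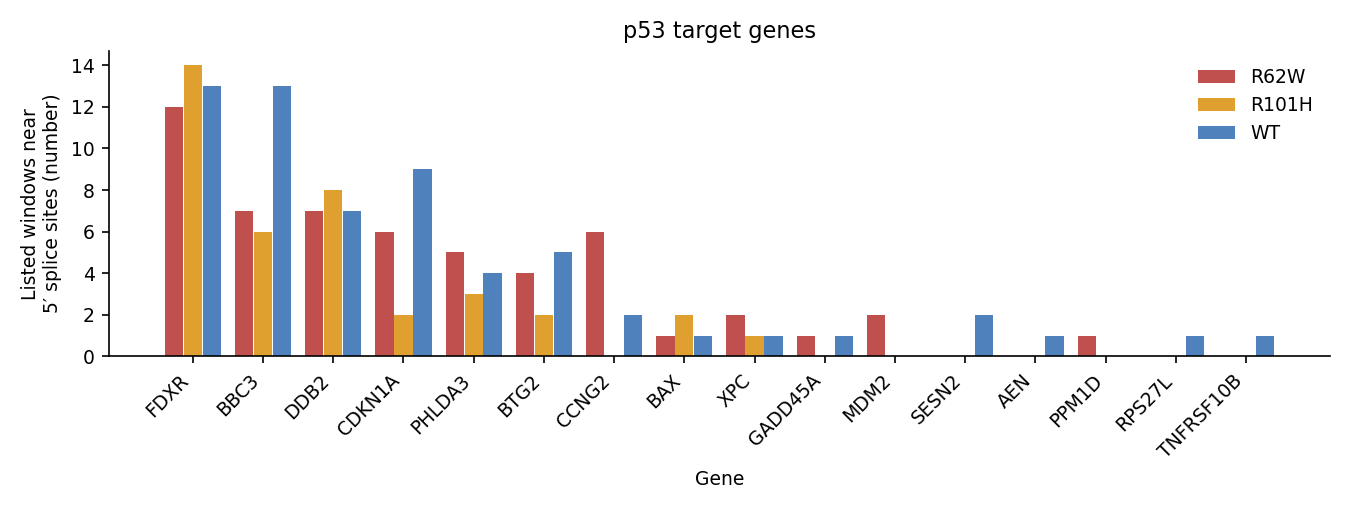
Number of listed windows near 5′ splice sites in each p53 target gene that had any, in R62W, R101H and WT. BBC3 (7, 6 and 13) and CDKN1A (6, 2 and 9) have most in WT, and FDXR (12, 14 and 13) and DDB2 (7, 8 and 7) have similar numbers.

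Apart from FDXR, the genes with the most members in the substitutions were of many kinds. PRRC2B had 20 in R62W, 10 in R101H and 10 in WT. CSNK1D, a casein kinase 1, had 18, 13 and 16, and 10 of its windows were in all 3 lists. DAZAP1, an RNA-binding protein of splicing and translation, had 18, 12 and 6, and U2AF2, which binds the polypyrimidine tract, had 15, 9 and 5. DNMT1, the maintenance DNA methyltransferase, had 13, 5 and 3, and TCF25 had 15, 10 and 2. AGAP3 had 13, 12 and 2, GAK, a kinase of clathrin uncoating, had 13, 12 and 5, CLCN7, a chloride transporter of lysosomes, had 12, 13 and 3, and ADGRL1, an adhesion receptor, had 12, 11 and 1. The 10 genes with the most windows held 5.32% of the R62W members, 5.36% of the R101H members and 16.0% of the WT members.

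The genes with the most members in WT were partly those of the substitutions, with CSNK1D, FDXR and PRRC2B among the leading 8. Others had most of their members in WT. FLCN, which encodes the tumour suppressor folliculin, had 7 in R62W, 5 in R101H and 15 in WT, CSNK1E had 9, 3 and 13, and SCRIB, a cell polarity protein, had 11, 5 and 16. EPHA2, an ephrin receptor kinase, had 6 in WT and none in the others. Their means were 3.99 to 4.57 on 162 IP reads and 1 input read in all. EPHA2 was listed by 11 windows of any kind in R62W, 10 in R101H and 57 in WT. BSG had 4 members and SERTAD1 3, both in WT alone. Windows of any kind numbered 41 in R62W, 19 in R101H and 41 in WT for BSG, and 5, 4 and 17 for SERTAD1. In total 45 of the 380 genes with members in WT had none in either substitution.

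Genes of both substitutions with no member in WT numbered 558. Windows of any kind covered 7760 genes in R62W, 8113 in R101H and 3257 in WT, so fewer genes could hold a member in WT. DDX12P, a helicase pseudogene, had 8 in R62W and 9 in R101H, EIF5A, a translation elongation factor, 8 and 9, and PRRC2A 7 and 8. FANCA, of the Fanconi anemia DNA repair complex, had 6 and 12, with medians of 1.88 and 1.47. KIAA0100 had 7 and 6. Genes with members in R62W and none in R101H numbered 511, led by CCNG2, SNAPC4 (5), ALDOA (4), FBRS (4) and NBPF12 (4). Those in R101H and none in R62W numbered 348, led by PPP1R12C (5), GTF2IP4 (4), SFI1 (4), BTNL9 (3) and CABIN1 (3). DDX12P, NBPF12 and GTF2IP4 belong to families of near-identical copies, so their windows are uncertain.

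Genes of splicing and of the ribosome were described from lists. Of the SR proteins and hnRNPs, 22 of 39 listed genes in R62W (56.4%), 13 of 40 in R101H (32.5%) and 5 of 36 in WT (13.9%) had members. Over all listed genes it was 17.6%, 14.8% and 11.9%. A gene with more windows of any kind has more occasions for a member, and these genes had 976, 905 and 271. Members made up 5.43%, 3.31% and 4.80% of those windows, against 3.27%, 2.43% and 5.01% for all listed genes. PTBP1 had 11, 7 and 9, and HNRNPK 6, 5 and 0. The factors of donor recognition had members in 6 of 24 (25%), 6 of 24 (25%) and 3 of 21 (14.3%), with 6, 6 and 3 windows in SNRNP70 and 3, 5 and 0 in TIAL1, which binds U-rich sequence near donors. Their windows shared with WT were all higher in the substitutions, 5 of 5 in R62W and 4 of 4 in R101H, with medians of 0.09 and 0.54, which lie below the shifts of 0.26 and 0.60 over all windows.

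Members were found in 9 of 30 small subunit ribosomal protein genes in R62W, 5 of 30 in R101H (16.7%) and 2 of 16 in WT (12.5%). For large subunit genes it was 13 of 47 (27.7%), 6 of 46 (13%) and 3 of 29 (10.3%). The 40S biogenesis factors had 8 of 47 (17%), 3 of 49 (6.12%) and 0 of 10. Hosts of snoRNAs, whose introns carry small nucleolar RNAs, had 10 of 25, 5 of 24 (20.8%) and 3 of 16 (18.8%). The CLK and DYRK kinases had 3 of 9, 1 of 9 and 0 of 4, and the casein kinase 1 genes 2 of 5, 2 of 6 and 2 of 4. The shares of all listed genes with a member were 17.6%, 14.8% and 11.9%. Members made up 5.24%, 4.03% and 6.90% of the windows of small subunit genes and 6.76%, 4.17% and 4.92% for large subunit genes. For 40S biogenesis factors it was 1.95%, 1.27% and 0%, and for snoRNA hosts 5.61%, 2.66% and 4.94%. For CLK and DYRK kinases it was 2.67%, 0.714% and 0%, and for casein kinase 1 genes 9.68%, 7.11% and 12.8%. Over all listed genes it was 3.27%, 2.43% and 5.01%.

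RPS19 itself, the precipitated protein, had few members, 1 in R62W, none in R101H and 3 in WT. The window at chr19:41861661-41861760 had 1.33 and 1.40 in R62W and 1.61 and 1.74 in WT. A further window annotated to RPS19 and MIR6797 (chr19:41869854-41869953) had 1.63 and 2.73 in R62W and 1.45 and 1.76 in R101H.

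A few members lay in introns that give rise to miRNAs, and 9 carried the annotation of a primary miRNA. Of these, 2 overlap the hairpins of the miR-15 and miR-16 family in the RefSeq table, whose mature 5p strands share the seed at bases 2 to 8, in capitals.
hsa-miR-16-5p: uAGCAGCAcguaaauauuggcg
hsa-miR-15a-5p: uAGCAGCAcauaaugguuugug

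The window in SMC4, a condensin subunit (chr3:160404686-160404764), covers 20 bases of the MIR16-2 hairpin and 11 bases of hsa-miR-16-5p. It had 2.33, 5.27 and 6.02 in R62W, 1.46 and 4.42 in R101H, and 1.93 and 4.57 in WT, on 132, 64 and 22 IP reads. The groups overlapped. The window in DLEU2, a long noncoding host transcript (chr13:50049136-50049188), lies within the MIR15A hairpin and covers all 22 bases of hsa-miR-15a-5p. It was listed in R62W alone, at 3.39 and 4.89, on 26 IP reads and 1 input read.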

How the data were processed

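The samples were 3 R62W, 2 R101H and 3 WT immunoprecipitates and 3 inputs from HEK293T cells. Per the submitters' processing notes the tools were fastp and STAR and the build GRCh38. The sources used here do not give versions or the window caller. The authors deposited 1 window table per IP group, pooled over its replicates. Per the file headers these hold whole-number IP and input counts, log2 odds ratios (lowest, mean, highest), p-values and q-values, the fraction of G and C bases, and another quantity, the number of passing replicates. In the values, q stayed under 0.2 and no window had fewer than 2 passing replicates, the only ones its log2 values cover. Library totals are not in the tables, so depth is known only as counts per window.

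Members were taken by their leading annotation. Windows were matched by identical coordinates. Replicate values were rebuilt from the lowest, mean and highest and compared with limma 3.58.1 (R 4.3.3) over all windows that both lists hold (Benjamini-Hochberg, 0.05), after testing on simulated data. Nothing in the labels names separate cultures, so p-values measure the spread between samples, which may be technical. Alternatives were a stricter q, windows enriched in every replicate, a pooled input of at least 10, other annotations, centring and equal list lengths. Members and gene lists were chosen with earlier results of these data known. Named genes had the most members per list or class of lists, led a gene list, or held the highest values, the largest differences or limma calls, as did windows annotated to RPS19 or primary miRNAs. Other genes were named after their values were seen, to complete full stretches or gene lists. Repeat element tables were not used. Coordinates are 1-based on GRCh38, and sequences are from RefSeq (GRCh38.p14).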

Additional observations from a re-analysis of the deposited data

How the results depend on the processing

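Under a stricter q, at most 0.05, there were 414 (R62W), 565 (R101H) and 95 (WT) members, or 1.83%, 1.31% and 3.18% of their windows. Windows enriched in every replicate left 780 in R62W (2.03%) and 171 in WT, with R101H unchanged by construction. A pooled input of at least 10 left 715, 515 and 162 (1.38%, 0.984% and 1.94%), adjacent windows alone 1140, 917 and 258 (1.32%, 0.983% and 1.68%), and 1 window per gene 394, 292 and 169 (5.08%, 3.6% and 5.19%, which leaves R62W close to WT). Counting any window with either annotation gave 9062, 8181 and 1936 (10.47%, 8.77% and 12.6%). The share was highest in WT and lowest in R101H in each of these 6 settings except windows enriched in every replicate, where R62W was lowest. With lists of equal length, 15% of WT members were in R62W, 8.17% in R101H, and 25.2% of R62W members were in R101H. By gene these were 84.5%, 73.7% and 61.7%. For R101H minus WT, limma called 2 members among windows enriched in every replicate, in CDKN1A and RPS2. With a pooled input of at least 10 in both it called 2, in RPS2 and STAG3L1. Centring moved the median for R101H minus WT to -0.52. The other settings moved the medians by less than the spread between replicates, though signs near 0 changed. No paired analysis was possible because the tables carry no replicate numbers, and for the same reason no replicate could be left out. Low input counts limit every value.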

Other observations

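The members were spread over 1728 genes, and 93.5% of the windows lay in protein coding genes, with 132 in lncRNA genes and 127 in pseudogenes. Chromosomes 19, 1 and 17 held the most, with 537, 478 and 430 windows. Most windows, 3411 of 4127 (82.7%), were 100 bases long, and the shortest had 15 bases.

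The 263 windows listed in WT alone were spread over 162 genes, and those with the most are named here by that count. FLCN and SCRIB had 7 each, and BBC3, EPHA2 and HDAC5, a histone deacetylase, had 6 each. The HDAC5 windows had mean log2 odds ratios of 2.26 to 4.67. Genes with 4 such windows included MIDN, at 4.23 to 4.48, GSE1, at 3.6 to 4.37, and LRPAP1, a chaperone of lipoprotein receptors, at 2.85 to 4.03.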
